A study of Mus musculus with 12 samples.

Results

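Broad peaks, defined here as autosomal regions of at least 1050 bp, made up 735 of the 13376 autosomal peaks in 4 lists of protein occupancy in mouse embryonic stem cells. The lists came from ChIP-seq, in which the DNA a protein sits on in fixed cells is pulled down with an antibody to that protein and then sequenced. They give ZFP57 and KAP1 peaks in the wild-type line A3 (strain 129X1/SvJ) and in the wild-type line E14 (strain 129P2/OlaHsd), both grown without feeder cells in serum and leukemia inhibitory factor. The series also holds Zfp57-/- A3 cells, inputs and the histone mark H3K9me3, and these 8 of its 12 libraries were not analysed here. Each list came from 1 library of 1 line, so no value has a replicate error, and a difference between A3 and E14 cannot be told apart from a difference between 2 libraries.

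Members were chosen by width alone, after overlapping or touching peaks of a list were merged. Of the 735, 45 were joined from 2 deposited peaks that touched, and 40 of these reached the limit only when joined. A width is itself a measured value, so the numbers and widths of the members are descriptions without a test. Positions are 1-based on the mouse build mm9 and lie on a grid of 150 bp windows, so widths and boundaries are known only to that step. The lists hold no score, read count or p-value, and the depth of the libraries is unknown. Gene models of mm9 were not used here, so exon, intron and UTR are not given.

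ZFP57, a KRAB zinc finger protein, recognises a short methylated CpG motif and keeps the marked parental copy of imprinting control regions methylated in embryonic stem cells. KAP1, also called TRIM28, is brought to DNA by such proteins and gathers enzymes that deposit H3K9me3. At an imprinting control region both proteins sit on a stretch of one parental chromosome, while KAP1 is also known at many retroviral elements bound by other KRAB proteins.

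The hexamer TGCCGC is the core of the known ZFP57 motif. It was searched on both strands (as TGCCGC or GCGGCA, each occurrence counted, also where 2 overlap) in RefSeq promoter sequences of build GRCm38.p6, of 300 bases each, taken by gene symbol for imprinted genes whose loci held a broad peak. Of 13 symbols looked up, 10 were found. Of all 32851 promoter sequences searched, 11.6% held at least 1 match and 1.53% held 2 or more. The promoters shown are those of broad-peak loci with a match at the gene named for the locus, at 1 start of Nnat and Plagl1, 2 of the 3 Mest starts and 1 of the 4 Snrpn starts. The 2 Mest windows overlap almost fully and the first is shown. They lie at chr2:157559828-157560127, chr10:13090582-13090881, chr6:30737800-30738099 and chr7:60005150-60005449 of GRCm38.p6, which are not positions of mm9. Each runs from 250 bases before to 50 after the start, 5′ to 3′ on the gene's strand, with matches in capitals.
Nnat (+ strand): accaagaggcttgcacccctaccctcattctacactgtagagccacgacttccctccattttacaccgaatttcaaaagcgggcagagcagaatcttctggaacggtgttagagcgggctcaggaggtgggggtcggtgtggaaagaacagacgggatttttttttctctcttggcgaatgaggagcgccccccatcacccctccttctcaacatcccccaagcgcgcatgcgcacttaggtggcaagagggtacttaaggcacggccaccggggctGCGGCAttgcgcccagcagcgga
Plagl1 (+ strand): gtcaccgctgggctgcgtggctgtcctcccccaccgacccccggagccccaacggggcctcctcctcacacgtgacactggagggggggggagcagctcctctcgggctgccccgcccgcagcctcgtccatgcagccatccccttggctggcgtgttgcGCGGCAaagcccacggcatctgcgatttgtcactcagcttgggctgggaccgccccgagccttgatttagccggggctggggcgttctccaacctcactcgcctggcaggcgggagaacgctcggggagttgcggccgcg
Mest (+ strand): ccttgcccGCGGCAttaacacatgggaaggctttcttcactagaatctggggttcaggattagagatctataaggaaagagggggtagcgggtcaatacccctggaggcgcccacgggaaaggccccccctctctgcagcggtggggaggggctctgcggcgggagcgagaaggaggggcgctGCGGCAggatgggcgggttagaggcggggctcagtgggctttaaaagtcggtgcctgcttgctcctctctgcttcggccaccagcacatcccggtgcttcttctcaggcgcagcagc
Snrpn (- strand): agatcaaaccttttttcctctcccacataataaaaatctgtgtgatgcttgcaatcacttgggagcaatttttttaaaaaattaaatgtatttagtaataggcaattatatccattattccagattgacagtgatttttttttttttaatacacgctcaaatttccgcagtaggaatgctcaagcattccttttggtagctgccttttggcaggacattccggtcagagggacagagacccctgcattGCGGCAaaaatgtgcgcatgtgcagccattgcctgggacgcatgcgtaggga
Nnat, Plagl1 and this Snrpn start held 1 match each and this Mest start held 2. The 300 bases contain 17 CpG dinucleotides for Nnat, 26 for Plagl1, 17 for Mest and 7 for Snrpn, where the median promoter has 7. Promoters of Zrsr1 and Inpp5f and all 4 Gnas starts in the table held no match, which says only that these letters are not in those windows. Among neighbouring genes of the same loci, 1 of the 2 Commd1 starts (Zrsr1 locus) and Copg2 (Mest locus) held 1 match each, and Blcap (Nnat locus) held none. Whether the mm9 peaks cover these bases was not checked, because the sequences are of another build.

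Broad peaks were few in 3 of the lists and numerous in A3 KAP1. The A3 ZFP57 list had 37 among 1431 autosomal peaks (2.59%, 95% exact Clopper-Pearson interval 1.83 to 3.55%). E14 ZFP57 had 25 of 575 (4.35%, 2.83 to 6.35%). A3 KAP1 had 641 of 10110 (6.34%, 5.87 to 6.83%), and E14 KAP1 had 32 of 1260 (2.54%, 1.74 to 3.57%). These intervals cover counting error only. The members took a larger part of the covered DNA than of the peaks, with 14.9% of the covered length in A3 ZFP57, 26.5% in E14 ZFP57, 14.2% in A3 KAP1 and 14.9% in E14 KAP1.

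Most members sat close to the width limit, above all in A3 KAP1. There 288 of the 641 were exactly 1050 bp wide and a further 551 peaks, at 900 bp, lay just outside. The same numbers were 11 and 27 in A3 ZFP57, 7 and 9 in E14 ZFP57, and 9 and 18 in E14 KAP1. In A3 KAP1 87.4% of the members were no wider than 1500 bp, against 62.2% in A3 ZFP57, 60.0% in E14 ZFP57 and 50.0% in E14 KAP1. Peaks over 3000 bp numbered 10 in A3 ZFP57, 7 in E14 ZFP57, 10 in A3 KAP1 and 7 in E14 KAP1. The number of very wide peaks was thus similar across lists that differed many times in length. The A3 KAP1 count includes chr1:88205551-88208700 and chr19:5840401-5843700, which pass 3000 bp only as joined peaks. The plot of member widths shows this long upper tail.

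**Figure D1:**
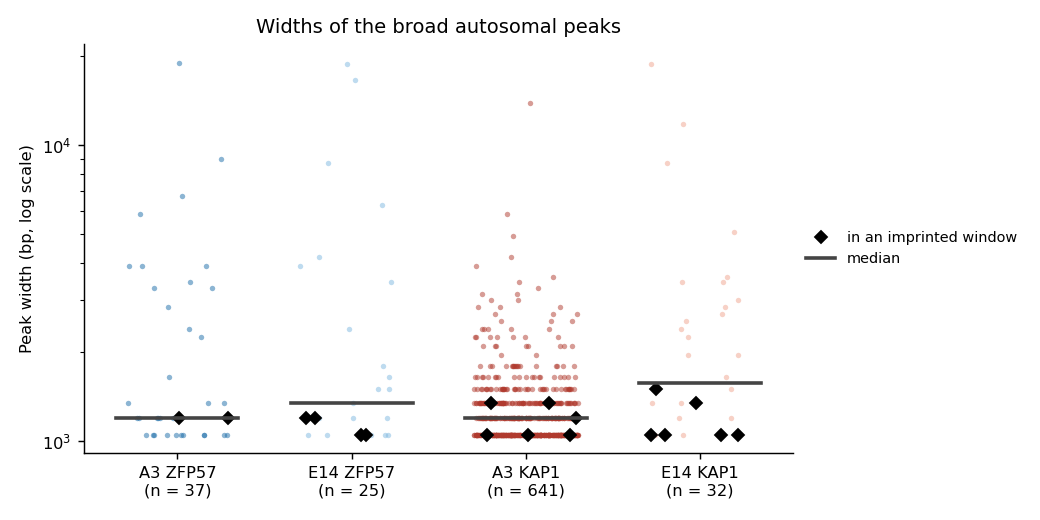
Width in bp (log axis) of each broad autosomal peak in the 4 lists, with 1 point per peak spread sideways at random. Horizontal bars are the medians (1200 bp for both A3 lists, 1350 bp for E14 ZFP57 and 1575 bp for E14 KAP1), and black diamonds are peaks in imprinted windows, none of them wider than 1500 bp.

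Imprinted loci were examined in 22 windows of 30 to 100 kb around known imprinting control regions. The windows were placed by hand from general knowledge of their mm9 positions and not from a file. A peak of any width was found in 21 of the 22 windows in at least 1 list, and in 12 windows in all 4 lists. Slc38a4 was the window with no peak. By list, 12 windows held a peak in A3 ZFP57, 21 in E14 ZFP57, 16 in A3 KAP1 and 21 in E14 KAP1.

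Broad peaks lay in 8 of these windows, 18 peaks in all. A3 ZFP57 had 2 of them, against 0.839% of all its peaks in the windows. E14 ZFP57 had 4 (background 4% of all its peaks), A3 KAP1 had 6 (background 0.178%) and E14 KAP1 had 6 (background 1.75%). They made up 5.41% of the broad peaks in A3 ZFP57 (0.661 to 18.2%), 16% in E14 ZFP57 (4.54 to 36.1%), 0.936% in A3 KAP1 (0.344 to 2.03%) and 18.8% in E14 KAP1 (7.21 to 36.4%). Most broad peaks of each list therefore lay outside the imprinted windows. Within the windows most peaks were narrower than the limit, but their median widths were above those of the lists. The median was 750 bp against 300 bp for the whole A3 ZFP57 list, 600 against 450 bp in E14 ZFP57, 750 against 600 bp in A3 KAP1 and 750 against 450 bp in E14 KAP1. Of the window peaks 16.7% were broad in A3 ZFP57, 17.4% in E14 ZFP57, 33.3% in A3 KAP1 and 27.3% in E14 KAP1.

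Nnat, a paternally expressed gene of brain and endocrine tissue, had the only imprinted window in which all lists called a broad peak. ZFP57 was called at chr2:157385251-157386450 in both lines, a width of 1200 bp. KAP1 was called at chr2:157385101-157386450 in both lines, a width of 1350 bp. The lines thus gave the same interval for each protein, and KAP1 reached 1 grid step further on one side. The E14 ZFP57 peak was deposited as 2 touching peaks of at most 600 bp and is broad only when they are joined.

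At Plagl1, which encodes a zinc finger transcription factor that restrains growth, A3 ZFP57 measured 750 bp, E14 ZFP57 measured 1200 bp, and KAP1 measured 1050 bp in each line. The KAP1 interval chr10:12810301-12811350 was the same in A3 and E14. All lists but A3 ZFP57 were broad there. The window of Trappc9 and the noncoding RNA Peg13 was broad in the same lists. A3 ZFP57 was 750 bp wide there, and the other lists all called chr15:72639901-72640950, a width of 1050 bp.

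Snrpn, which encodes a splicing protein at the control region of the Prader-Willi and Angelman domain, was broad in A3 and not in E14. ZFP57 measured 1200 bp in A3 (chr7:67149001-67150200) and 600 bp in E14, and KAP1 measured 1350 bp in A3 (chr7:67148851-67150200) and 750 bp in E14. The opposite held at Zrsr1, a retrogene copy of a splicing factor. E14 called chr11:22871851-22872900 for both proteins, 1050 bp wide. A3 KAP1 overlapped it with a peak of 450 bp and A3 ZFP57 had no peak in the window.

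At Inpp5f, a phosphatase gene with an imprinted short transcript, the KAP1 peaks were broad, at 1200 bp in A3 (chr7:135831151-135832350) and 1050 bp in E14 (chr7:135831151-135832200). The ZFP57 peaks inside them were 450 bp wide in both lines. Mest, which encodes a hydrolase-like protein, was broad only for E14 KAP1 (chr6:30687301-30688800, 1500 bp, the widest peak of any imprinted window, joined from 2 touching peaks of at most 900 bp), with 900 bp for E14 ZFP57, 750 bp for A3 KAP1 and no A3 ZFP57 peak. The Gnas locus, which encodes a stimulatory G protein subunit, was broad only for A3 KAP1 (chr2:174121051-174122100, 1050 bp), with 750 bp in each of the other lists.

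KAP1 and ZFP57 widths were also compared over all the windows. Taking the widest peak of each window, KAP1 was wider than ZFP57 in 9 of 12 shared windows in A3, equal in 2 and narrower in 1, with a median difference of 150 bp. The medians of the whole A3 lists are 600 bp for KAP1 and 300 bp for ZFP57. In E14 it was wider in 10 of 21 windows, equal in 9 and narrower in 2, with a median difference of 0 bp, and both whole E14 lists have a median of 450 bp. Between the lines, ZFP57 was wider in A3 in 4 of 12 windows, equal in 5 and narrower in 3. For KAP1, A3 was wider in 5 of 16 windows, equal in 8 and narrower in 3. Windows are not replicates, and these counts carry no test.

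**Figure D2:**
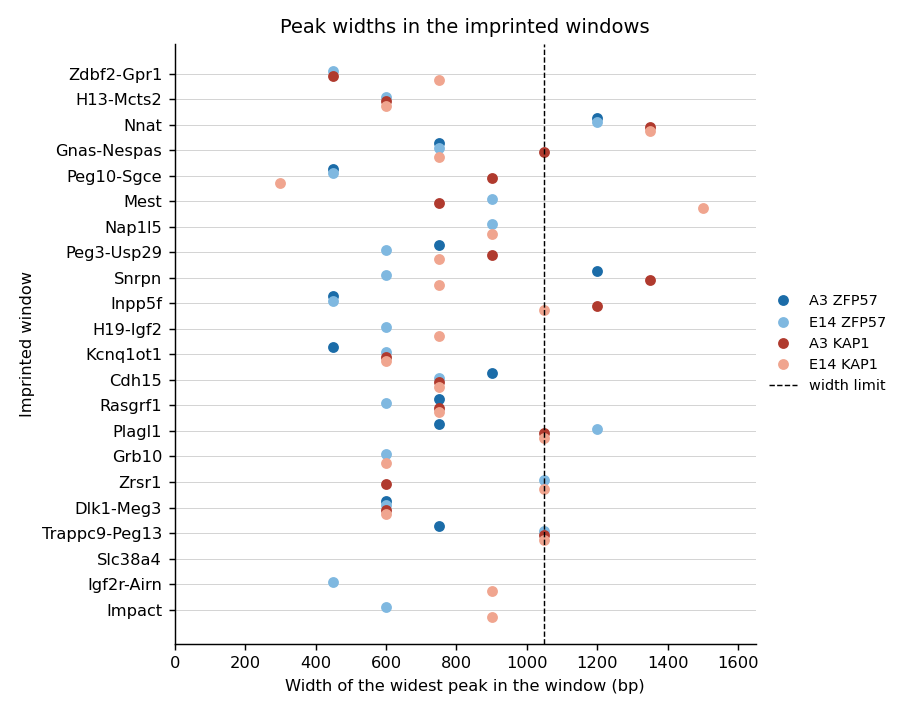
Width in bp of the widest peak in each of the 22 imprinted windows (rows), with 1 point per list and a dashed line at the 1050 bp limit; a missing point means that the list had no peak there. Points at or past the line occur in 8 windows, and only Nnat has all 4 points past it.

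Outside the imprinted windows the widest members lay in a small number of regions. At the proximal end of chromosome 9, A3 ZFP57 called 5 broad peaks between 2999851 and 3038400 that covered 22650 bp, and E14 ZFP57 called 4 that covered 18450 bp. The A3 peaks were 3450, 3900, 2400, 9000 and 3900 bp wide. The E14 peaks were 3450, 2400, 8700 and 3900 bp wide. The second A3 peak, chr9:3003751-3007650, had no partner in any list. E14 KAP1 called 2 broad peaks there, chr9:2999851-3003300 and chr9:3021901-3033750, the latter 11850 bp wide. A3 KAP1 called the first of these and, further on, a peak of 1050 bp that ended at 3095250. All peaks that the lists had in this stretch were broad. No peak of any list on chromosome 9 started before 2999851.

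A single region of chromosome 1 gave the widest member of 3 lists. A3 ZFP57 called chr1:87479101-87498150 (19050 bp), and both E14 lists called chr1:87479251-87498150 (18900 bp), while A3 KAP1 had no peak there. Nearby, E14 ZFP57 called chr1:85266301-85282950 (16650 bp) with no partner in any list. E14 KAP1 called chr1:85175401-85178850 (3450 bp) and A3 KAP1 called chr1:85076701-85080300 (3600 bp) and chr1:88205551-88208700 (3150 bp), also without partners. The last of these was joined from 2 touching peaks of at most 1950 bp. These wide calls fell within a few megabases of each other but, apart from the first region, each belonged to 1 list.

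On chromosome 4 between 145038301 and 146742750 each list had broad peaks, 3 in A3 ZFP57, 2 in E14 ZFP57, 7 in A3 KAP1 and 3 in E14 KAP1. The ZFP57 peaks did not meet. In A3 they lay at chr4:145146451-145153200 (6750 bp), chr4:145181851-145185150 (3300 bp) and chr4:145705351-145709250 (3900 bp), and in E14 at chr4:145038301-145044600 (6300 bp) and chr4:146017351-146021550 (4200 bp). All 3 E14 KAP1 peaks overlapped a broad A3 KAP1 peak, but with shifted edges. A3 called chr4:145424701-145427700 (3000 bp) where E14 called chr4:145423801-145425750 (1950 bp), chr4:145722001-145725150 (3150 bp) where E14 called chr4:145724101-145726050 (1950 bp), and chr4:146559601-146562450 (2850 bp) where E14 called chr4:146558701-146561400 (2700 bp). The widest A3 KAP1 peak of the region, chr4:146709001-146713200 (4200 bp), was in A3 KAP1 alone. ZFP57 was called at none of these KAP1 peaks in either line.

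A region of chromosome 13 between 12913651 and 13296300 held broad KAP1 peaks and no ZFP57 peak of any width. E14 KAP1 had 5 broad peaks there and A3 KAP1 had 3. A3 called chr13:12913651-12919500 (5850 bp) and chr13:12980401-12984300 (3900 bp). E14 overlapped only the end of the first, with chr13:12918001-12919500 (1500 bp), and its peak of 2850 bp at chr13:12965551-12968400 met no A3 peak. The remaining broad A3 peak, chr13:13133401-13135500 (2100 bp), met an E14 KAP1 peak narrower than the limit. On chromosome 8, E14 KAP1 called chr8:19764601-19773300 (8700 bp) and chr8:19996651-20001750 (5100 bp), neither of which overlapped a peak of another list.

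The other widest members were mostly called once. For A3 KAP1 these were chr17:6255001-6268950 (13950 bp, the widest of that list), chr16:3121501-3126450 (4950 bp) and chr19:5840401-5843700 (3300 bp, joined from 2 touching peaks of at most 2700 bp). For A3 ZFP57 they were chr12:94123801-94129650 (5850 bp) and chr12:117044401-117047700 (3300 bp). For E14 KAP1 they were chr5:146514451-146518050 (3600 bp) and chr18:7320751-7323750 (3000 bp). Just before the wide chromosome 17 peak, 900 bp away, A3 KAP1 had a peak of 1200 bp at chr17:6252901-6254100 that E14 KAP1 (1050 bp) and E14 ZFP57 (900 bp) also called.

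A few broad sites outside the windows resembled the imprinted ones in being called by every list. At chr7:134754301-134755950 every list was broad. ZFP57 measured 1200 bp in A3, joined from 2 touching peaks of 600 bp, and 1500 bp in E14. KAP1 measured 1350 bp in A3 and 1650 bp in E14. At chr6:149310001-149311650 E14 alone was broad, with 1650 bp for ZFP57 and 1050 bp for KAP1, where the A3 peaks measured 600 and 900 bp. At chr10:79201801-79203150 KAP1 in E14 was 1350 bp wide, joined from 2 touching peaks, and the peaks of the other lists were at most 900 bp. E14 ZFP57 also called chr5:130162651-130164450 (1800 bp), over which each KAP1 list had 2 separate narrower peaks and A3 ZFP57 had none.

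**Figure D3:**
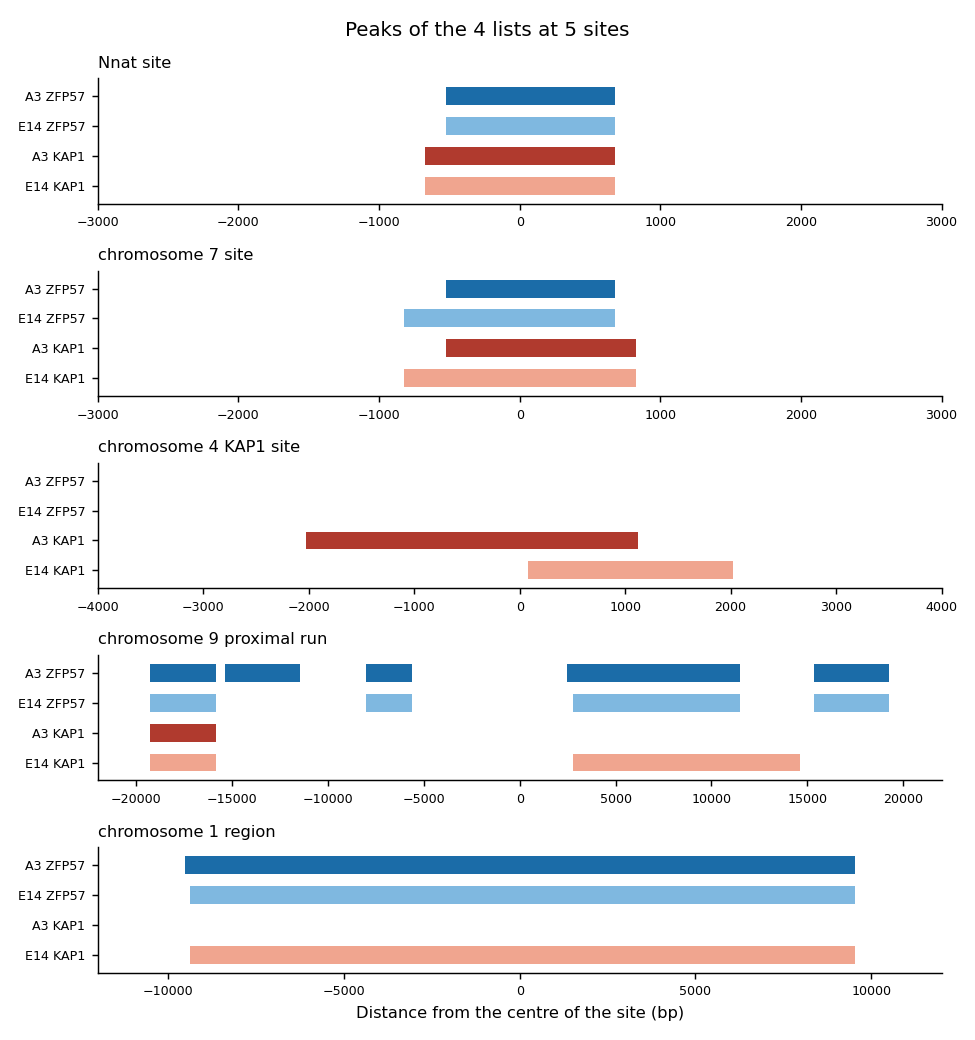
Peaks of the 4 lists (rows, bars to scale) at 5 sites, against distance in bp from the centre of each site. Edges differ by at most 1 grid step of 150 bp at Nnat, the KAP1 peaks of the chromosome 4 site are shifted against each other, and the wide chromosome 9 and chromosome 1 peaks repeat between lists with several equal edges.

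Recurrence was measured as overlap by at least 1 bp with a peak of any width in another list. Of the 37 broad A3 ZFP57 peaks, 8 recurred in some other list (21.6%, 9.83 to 38.2%), where 5.45% of all A3 ZFP57 peaks did. Of the 25 broad E14 ZFP57 peaks 13 recurred (52.0%, 31.3 to 72.2%), where 29.2% of all did. The broad A3 KAP1 peaks recurred in 30 of 641 cases (4.68%, 3.18 to 6.61%), near the 6.11% of all A3 KAP1 peaks. Of the 32 broad E14 KAP1 peaks 18 recurred (56.2%, 37.7 to 73.6%), near the 52.5% of all. The ZFP57 shares lay above those of their whole lists, but their intervals reach the shares of some narrower classes. Peaks of 600 bp and of 750 bp recurred in 18.3% and 12 of 60 cases in A3 ZFP57, in 63.7% and 67.9% in E14 ZFP57, and in 82.7% and 86.3% in E14 KAP1. The broad share was thus close to these classes in A3 ZFP57 and below them in E14 KAP1. In E14 ZFP57 it was also lower, but its interval holds the shares of both classes. For A3 ZFP57 the broad share was 12.5% without the proximal end of chromosome 9, 13% without peaks over 1500 bp and 35% without chromosomes 1, 8 and 14. For A3 KAP1 it was 2.81% with a reciprocal overlap of 50% and 7.54% without chromosomes 1, 8 and 14. A wide peak meets another more easily than a narrow one, so this share depends on width by construction. Counting only peaks whose midpoint lay inside a peak of another list gave 21.6% against 5.38% for A3 ZFP57 and 52.0% against 29.0% for E14 ZFP57. For KAP1 it gave 3.59% against 5.90% in A3 and 56.2% against 52.1% in E14. No test was made, because width chose the members.

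Without the imprinted windows, 6 of 35 broad A3 ZFP57 peaks (17.1%), 9 of 21 in E14 ZFP57 (42.9%), 24 of 635 in A3 KAP1 (3.78%) and 12 of 26 in E14 KAP1 (46.2%) recurred. Of the A3 ZFP57 peaks that recurred outside the windows, 4 lay in the proximal run of chromosome 9. Where broad peaks did recur, the partner was often broad too, in 8 of 8 cases for A3 ZFP57, 12 of 13 for E14 ZFP57, 12 of 30 for A3 KAP1 and 16 of 18 for E14 KAP1.

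Within a line, 4 broad A3 ZFP57 peaks met an A3 KAP1 peak (10.8%, where 4.05% of all A3 ZFP57 peaks did). In E14, 11 broad ZFP57 peaks met a KAP1 peak (44.0%, where 25.9% of all did). In the other direction 9 broad A3 KAP1 peaks met an A3 ZFP57 peak (1.40%, 0.644 to 2.65%, where 0.574% of all did). For E14 KAP1 it was 14 (43.8%, where 11.8% of all did). Without the imprinted windows 3 of 635 broad A3 KAP1 peaks met an A3 ZFP57 peak (0.472%). ZFP57 was thus seldom called with A3 KAP1 peaks of any width, and this was not particular to the broad ones.

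Between the lines, 8 broad A3 ZFP57 peaks met an E14 ZFP57 peak (3.56% of all A3 ZFP57 peaks did) and 10 of the broad E14 ZFP57 peaks met an A3 one (8.87% of all). For KAP1, 29 broad A3 peaks met an E14 KAP1 peak (5.8% of all A3 KAP1 peaks) and 15 broad E14 peaks met an A3 one (46.5% of all). The relation with width was not monotonic. For A3 ZFP57 the share found in E14 was 0.254% at 300 bp and 12 of 60 peaks at 750 bp (10.8 to 32.3%). At 1050 bp it was 0 of 11, and at 1650 bp and over it was 35.7% of 14 (12.8 to 64.9%). The 0 of 11 has an exact interval up to 28.5%, so it does not show that peaks of this width never recur. For A3 KAP1 the share was 1.66% at 300 bp, 7.67% at 750 bp (6.22 to 9.34%) and 2.94% at 1200 to 1500 bp (1.28 to 5.71%). It was 9.88% of the 81 at 1650 bp and over (4.36 to 18.5%). The intervals of these 2 widest classes overlap. Counted by midpoint, their shares were 2.21% and 3.70%, so most of the higher value came from overlap that missed the midpoint. For E14 KAP1 it was 24.1% at 300 bp, 72.5% at 750 bp and 31.2% at 1650 bp and over (11 to 58.7%).

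**Figure D4:**
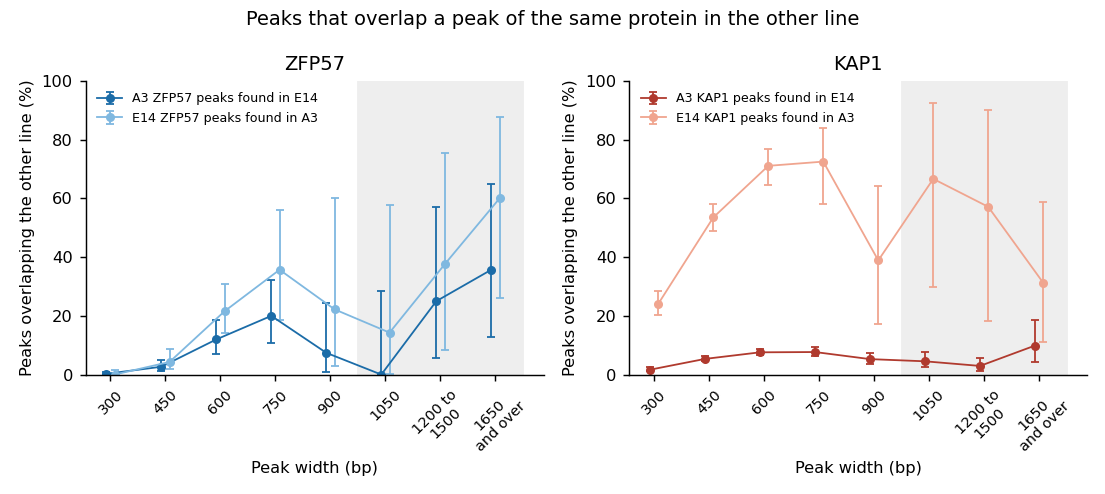
Share of peaks (percent, with 95% exact intervals) that overlap a peak of the same protein in the other line, by peak width in bp, for ZFP57 (left) and KAP1 (right); the shaded classes are the broad peaks. In A3 KAP1 the share is 7.67% at 750 bp, 2.94% at 1200 to 1500 bp and 9.88% at 1650 bp and over. Counted by midpoint, which is not drawn, the last 2 are 2.21% and 3.70%. The intervals of the broad ZFP57 and E14 KAP1 classes are wide because each holds at most 16 peaks.

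Joined over the lists, the members formed 706 sites, of which 666 were called in 1 list, 23 in 2, 7 in 3 and 10 in all 4. The A3 KAP1 list alone accounted for 611 of the sites. All 8 imprinted sites were called in at least 3 lists, and 6 of them in all 4 (75.0%, 34.9 to 96.8%). Of the 698 other sites 32 were called in 2 or more lists (4.58%, 3.16 to 6.41%) and 4 in all 4 (0.573%, 0.156 to 1.46%). The windows were chosen as known imprinted regions, where these proteins are known to bind, so the contrast describes that choice as well as the peaks. Sites outside the windows reached 19050 bp, and those in the windows 1650 bp.

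Identical boundaries are a start and an end that match exactly on the 150 bp grid. In A3 ZFP57, 4 of 37 broad peaks had such a match in some other list, where 3.07% of all did. In E14 ZFP57 it was 7 of 25 (17.9% of all), in A3 KAP1 4 of 641 (2.29% of all) and in E14 KAP1 6 of 32 (21% of all). The broad share was thus above that of the list for both ZFP57 lists, below it for A3 KAP1 and near it for E14 KAP1. These broad peaks came from 9 intervals. Of these, 5 lay in imprinted windows: the 2 Nnat intervals, Plagl1, Zrsr1 and Trappc9-Peg13, with widths of 1050 to 1350 bp. The other 4 were chr1:87479251-87498150 and chr9:2999851-3003300, chr9:3011101-3013500 and chr9:3034501-3038400, with widths of 2400 to 18900 bp. Exactly equal edges were therefore seen both at known targets and in the wide chromosome 1 and chromosome 9 regions. Among these 9 autosomal intervals the 2 kinds did not overlap in width. That split did not hold with chromosomes X and Y included. Identical boundaries then rose to 8 in E14 ZFP57 and 7 in E14 KAP1. The only broad peak this added to either list lay on chromosome X outside the windows and was 1050 bp wide. The interval chr9:2999851-3003300 was the same in 4 lists, Trappc9-Peg13 in 3 and the other 7 in 2.

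Identical edges were also common among overlapping peaks in general. Over the 6 pairs of lists, 392 of 996 overlapping peak pairs had identical boundaries (39.4%) and 87.3% had both edges within 150 bp. Where 1 or both peaks were broad, 16 of 95 pairs were identical (16.8%) and 43.2% were within 150 bp. Among these broad pairs, 7 of 36 in imprinted windows (19.4%) and 9 of 59 elsewhere (15.3%) were identical. Both edges lay within 150 bp in 63.9% of the broad pairs in imprinted windows and in 30.5% of those elsewhere, and the largest offset was 750 bp in the windows and 4350 bp elsewhere. The pairs share peaks and lists and are not independent, so no test was made. Whether repeat or background signal contributes to the chromosome 1 and chromosome 9 regions was not tested, since the inputs and the Zfp57-/- libraries were not analysed here.

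Clusters were defined as broad peaks of a list within 100 kb of each other. In A3 ZFP57 12 of the 37 members fell in 4 clusters, in E14 ZFP57 10 of 25 in 4, in A3 KAP1 207 of 641 in 92, and in E14 KAP1 6 of 32 in 2. These are 32.4% of the members in A3 ZFP57, 32.3% in A3 KAP1 and 18.8% in E14 KAP1. For comparison, 1.15% of the narrower A3 ZFP57 peaks, 0.909% in E14 ZFP57, 10.8% in A3 KAP1 and 1.30% in E14 KAP1 lay within 100 kb of a broad peak of their list. The share was thus higher for broad than for narrower peaks in each list. In E14 KAP1 this rests on 6 peaks in 2 regions, and without peaks over 1500 bp 0 of 16 were clustered. In A3 KAP1, where broad peaks were concentrated on chromosomes 1, 8 and 14, 88 of 358 were clustered without these chromosomes. The share of narrower A3 KAP1 peaks near a broad one is not given for that setting.

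The largest clusters differed between the lists. For both ZFP57 lists it was the chromosome 9 run, and for E14 KAP1 the chromosome 13 region with 4 peaks. A3 KAP1 had 77 pairs, 10 clusters of 3, 2 of 4 and 3 of 5. In A3 KAP1 a run on chromosome 1 had 3 peaks of 2700 bp each, chr1:172993651-172996350, chr1:173001151-173003850 and chr1:173008801-173011500, whose starts lay 7500 and 7650 bp apart. Another run had 5 peaks between 55811251 and 55839750 on chromosome 12, with widths from 1050 to 1950 bp. None of the peaks in these 2 runs met a peak of another list. E14 ZFP57 had pairs whose peaks no other list overlapped at chr2:98502151-98503350 with chr2:98506201-98507700, at chr6:130858501-130859700 with chr6:130927801-130928850 and at chr17:33303301-33304500 with chr17:33325951-33327300. Between the 2 peaks of the chromosome 2 pair lay an E14 KAP1 peak of at most 750 bp that ended at 98504400.

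In A3 KAP1 the broad peaks were concentrated on chromosomes 1, 8 and 14, a grouping chosen after its values were seen. Broad peaks made up 15.7% of the A3 KAP1 peaks on chromosome 1 (134 of 851, 13.4 to 18.4%), 14.3% on chromosome 8 (88 of 617, 11.6 to 17.3%) and 15.1% on chromosome 14 (61 of 403, 11.8 to 19%). On the other 16 autosomes the share ran from 2.83% to 6.08%. That the ranges did not overlap follows from a grouping chosen after these shares were seen. The 3 chromosomes together held 283 of the 641 broad A3 KAP1 peaks (44.1%) and 1871 of the 10110 A3 KAP1 peaks of any width. The median width of all A3 KAP1 peaks was 600 bp both on these chromosomes and on the others. In E14 KAP1 the shares were 3.08% on these chromosomes (6 of 195, 1.14 to 6.58%) and 2.44% on the others (26 of 1065, 1.60 to 3.56%).

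Of these chromosomes, A3 ZFP57 had many broad peaks only on chromosome 14. Of its 37 broad peaks 15 lay on chromosome 14, which held 158 of its 1431 peaks of any width. Beyond 80 Mb lay 14 of these 15 broad peaks, and 132 of the 158 peaks of any width. The broad share was 10.6% beyond 80 Mb (5.92 to 17.2%) and 3.85% before it (1 of 26, 0.0973 to 19.6%). These intervals overlap, so a difference between these parts of the chromosome is not shown for A3 ZFP57. The 14 broad peaks beyond 80 Mb were 1050 to 1350 bp wide. None met a peak of another list, where 5.45% of all A3 ZFP57 peaks did. On chromosomes 1, 8 and 14 together 4 of the 495 A3 ZFP57 peaks met an E14 ZFP57 peak (0.808%). Having no partner was thus usual for A3 ZFP57 peaks of any width, and not particular to these. On chromosome 1 2 of 203 A3 ZFP57 peaks were broad and on chromosome 8 none of 134, where 3 counts would be 2.24%. A3 KAP1 peaks beyond 80 Mb on chromosome 14 were broad in 28 of 99 cases (28.3%, 19.7 to 38.2%), and before 80 Mb in 33 of 304 (10.9%, 7.59 to 14.9%). E14 had no broad peak beyond 80 Mb, among 8 ZFP57 and 21 KAP1 peaks, where 3 counts would be 37.5% and 14.3%.

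Recurrence in A3 KAP1 also differed between these chromosomes and the rest. On chromosomes 1, 8 and 14, 3 of 283 broad peaks met an E14 KAP1 peak (1.06%, 0.219 to 3.07%), where 4.33% of all A3 KAP1 peaks there did. On the other autosomes 26 of 358 did (7.26%, 4.80 to 10.5%), where 6.13% of all did. Copy number and the input level of these chromosomes in A3 were not analysed here, and their part in the excess was not tested.

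**Figure D5:**
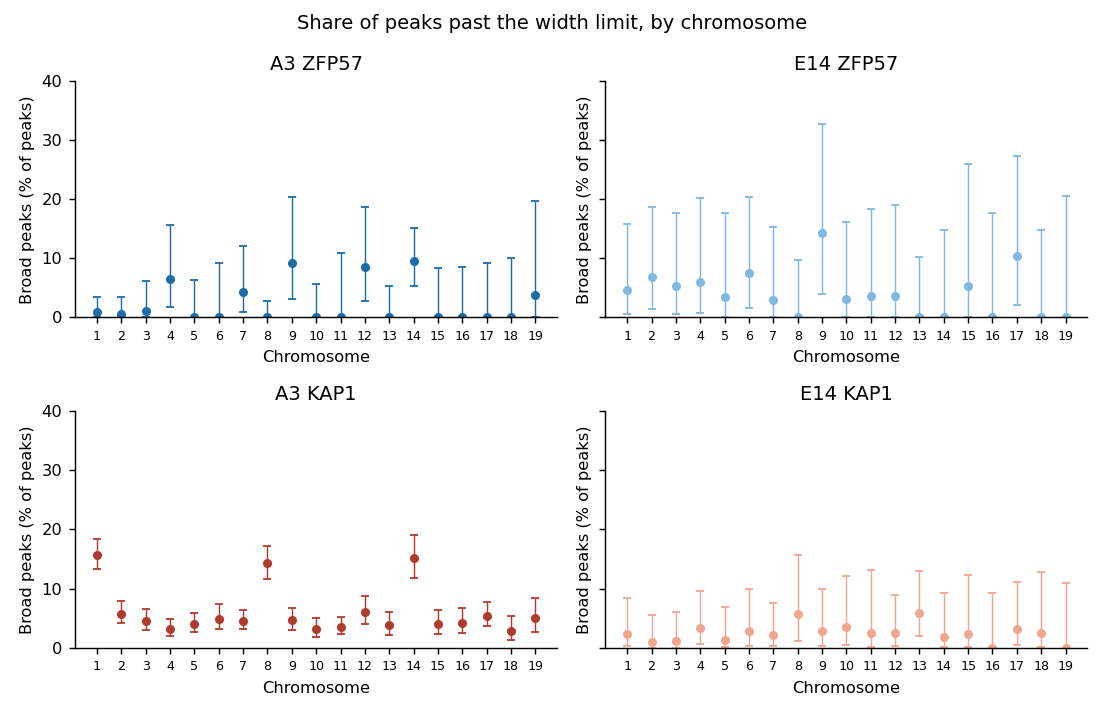
Share of the autosomal peaks of each list that are broad (percent, with 95% exact intervals), by chromosome. In A3 KAP1 chromosomes 1, 8 and 14 lie between 14.3% and 15.7% and all others at or under 6.08%, while the smaller lists have wide intervals.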

How the data were processed

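Per the labels, ChIP-seq was done on fixed wild-type A3 and E14 cells with antibodies to ZFP57 and KAP1. The deposited values are peak starts and ends, made by the authors separately for each library, without a score. Reads were handled with Bowtie 0.12.7, SAMtools 0.1.18, CASAVA 1.8.2 and bedtools 2.14.3-1 on mm9, per the submitters' processing notes. Not given in the sources used here are the peak caller, its threshold and the use of the input, all of which set the widths. Every start lay 1 above a multiple of 150 bp and every end on one. Peaks that overlapped or touched were merged within a list, which removed 1, 1, 53 and 3 peaks (A3 ZFP57, E14 ZFP57, A3 KAP1, E14 KAP1), and chromosomes X and Y were left out. Shares have 95% exact Clopper-Pearson intervals. Peaks named are those in imprinted windows, the 10 widest of each list, those with identical boundaries and sites broad in 3 or 4 lists. Other peaks, regions and chromosome groups were chosen after their values were seen. The members, windows and lists were chosen with earlier results of these data known. Promoters on chromosome 18 were not used. Python 3.11.15, pandas 2.3.3 and scipy 1.17.1 were used, and overlap and cluster counts were checked on simulated data against bedtools 2.31.1.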

Additional observations from a re-analysis of the deposited data

How the results depend on the processing

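Of 190 values recomputed under alternatives, 147 stayed within 1.5 times the main count or inside its interval and 43 moved. No paired analysis was possible because each group has 1 library. Values below are in the order A3 ZFP57, E14 ZFP57, A3 KAP1, E14 KAP1 unless a list is named. At a limit of 900 bp there were 64 broad peaks in A3 ZFP57, 1192 in A3 KAP1 and 50 in E14 KAP1, 1298 sites, identical boundaries for 11 in E14 ZFP57 and 10 in E14 KAP1, and 438 and 14 clustered KAP1 peaks. At 1200 bp there were 353 broad A3 KAP1 peaks and 400 sites. The imprinted windows then held 2 broad peaks in E14 ZFP57, 3 in A3 KAP1 and 2 in E14 KAP1, identical boundaries remained for 2 in A3 KAP1 and 3 in E14 KAP1, and 94 A3 KAP1 peaks were clustered. Without peaks over 1500 bp the lists other than A3 KAP1 had 23, 15 and 16 broad peaks, of which 5, 6 and 0 were clustered, and identical boundaries for 1 in A3 ZFP57 and 3 in E14 ZFP57. A reciprocal overlap of 50% lowered recurrence of broad A3 KAP1 peaks to 2.81%. Boundaries within 150 bp were found for 7 in A3 ZFP57, 10 in A3 KAP1 and 11 in E14 KAP1. A cluster distance of 10 kb gave 6, 60 and 2 clustered peaks in E14 ZFP57, A3 KAP1 and E14 KAP1, and 1 Mb gave 23, 443 and 14 in A3 ZFP57, A3 KAP1 and E14 KAP1. The following were chosen after seeing the data. Without chromosomes 1, 8 and 14 there were 20 broad A3 ZFP57 and 358 broad A3 KAP1 peaks, 7 and 88 of them clustered, and 7.54% of the A3 KAP1 ones recurred. Without the proximal end of chromosome 9, identical boundaries were left for 1 in A3 ZFP57 and 4 in E14 ZFP57, and 7 and 6 were clustered. Including chromosomes X and Y, leaving peaks unmerged, merging within 1 kb, overlap by midpoint or within 1 kb, counting clusters once and widening the windows by 50 kb moved no value. The fall and rise of these counts follows from which peaks each setting admits. Depth is unknown, so how many narrower calls would pass the limit with more reads cannot be given.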

Other observations

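The sex chromosomes, left out of the counts above, held few broad peaks. A3 ZFP57 had 1 on chromosome Y, 22950 bp wide, and 1 on chromosome X, 6150 bp wide, and neither overlapped a peak of another list. E14 ZFP57 and E14 KAP1 each had 1 on chromosome X, both 1050 bp wide and both called in another list. With the sex chromosomes included, broad peaks with identical boundaries numbered 8 in E14 ZFP57 and 7 in E14 KAP1, against 7 and 6 without. A3 KAP1 had none among 176 peaks on chromosome X and 9 on chromosome Y.

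Some broad ZFP57 peaks of the lines lay next to each other without overlapping. On chromosome 3 A3 called chr3:15662551-15663750 and E14 called chr3:15664951-15666000, with 1200 bp between them, and no KAP1 peak overlapped either. On chromosome 9 the A3 peak without a partner lay 450 bp from the nearest E14 ZFP57 peak. On distal chromosome 12, A3 ZFP57 had 10 peaks between 114823051 and 117665100, 4 of them broad. In the surrounding 4 Mb E14 ZFP57 had 6 peaks, 1 of them broad, E14 KAP1 had 7, 1 of them broad, and A3 KAP1 had 11, none broad.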
